A study of Homo sapiens with 4 samples.

Results

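Among 58365 gene rows of the expression table, 10 genes that set epithelial against mesenchymal state were followed: the repressors SNAI1, SNAI2, ZEB1 and ZEB2, and the epithelial guardians OVOL1, OVOL2, GRHL1, GRHL2, ESRP1 and ESRP2. Their rows were found by gene symbol, and each symbol had 1 row. The genes themselves were chosen with earlier results of these data known. All 10 were among the 15957 genes that passed the filter on low values, a mean of at least 0.5 FPKM (fragments per kilobase of transcript, scaled to library depth) over the 4 samples. The cells were derived from H1, a human embryonic stem cell line, and were collected at day 2 of hematopoietic differentiation in Custom mTeSR1 medium with 40 ng/ml activin A and 50 ng/ml BMP4, which both groups received. The DMSO group (vehicle, n = 2) was compared with the IWP2 group (n = 2). IWP2 is a small molecule that blocks Porcupine, the enzyme that acylates Wnt proteins so that they can be secreted. No IWP2 dose was given in the labels, and H1 is 1 line, so that the spread between the 2 samples of a group measures neither donors nor, as far as the labels state, separate differentiations.

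SNAI1, SNAI2, ZEB1 and ZEB2 are zinc finger transcription factors that bind E-boxes, among them those of the E-cadherin gene CDH1, and recruit corepressors there. They are known for driving epithelial-mesenchymal transition (EMT), the step by which epiblast cells leave an epithelial sheet at the primitive streak. OVOL1 and OVOL2 (zinc finger factors) and GRHL1 and GRHL2 (grainyhead-like factors) hold the epithelial state, and OVOL and GRHL proteins are known to repress ZEB1, which represses GRHL2 and ESRP genes in return. ESRP1 and ESRP2 are RNA-binding proteins that impose epithelial splicing.

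Wnt target genes were lower with IWP2. SP5, a direct Wnt target, stood at 53.2 and 47.0 FPKM in the DMSO samples and at 0.379 and 0.363 FPKM in the IWP2 samples. AXIN2, LEF1 and T (Brachyury) were also lower with IWP2, and of 18 Wnt target genes tested 14 fell and 0 rose (limma, as below, with 0 higher also at an unadjusted p under 0.05). The replicates of a group differed by a median of 0.16 (DMSO) and 0.13 (IWP2) on the log2 scale over all genes tested, and depth, estimated from the smallest steps of the FPKM values, was 18000000 to 22200000 fragments a sample. Among cell markers, all 17 mesoderm and primitive streak genes tested fell with IWP2, and POU5F1, a pluripotency factor, was at 751 and 571 FPKM with DMSO and at 1854 and 1844 FPKM with IWP2. In bulk RNA, fewer cells of a type and less RNA per cell cannot be told apart.

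With IWP2, all 4 SNAI/ZEB genes were lower and 4 of the 6 guardians (OVOL2, GRHL1, GRHL2 and ESRP1) were higher (limma on log2(FPKM + 1), Benjamini-Hochberg adjusted p under 0.05). OVOL1 and ESRP2 did not pass the test. Of all 15957 genes tested, 13.3% were called, 7.39% as lower and 5.86% as higher, against 8 of these 10 genes. The 10 were not a blind choice, since the paper had already reported SNAI1, SNAI2 and ZEB2 as attenuated under Wnt inhibition. Both IWP2 samples lay beyond both DMSO samples for all 10 genes, as they did for 58.6% of the genes tested. For all 10 genes, DMSO replicate 1 lay nearer to the IWP2 samples than DMSO replicate 2 did. The DMSO samples thus differed in the same direction as the groups, and the 10 genes are not separate observations. The cause of this was not tested.

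**Figure D1:**
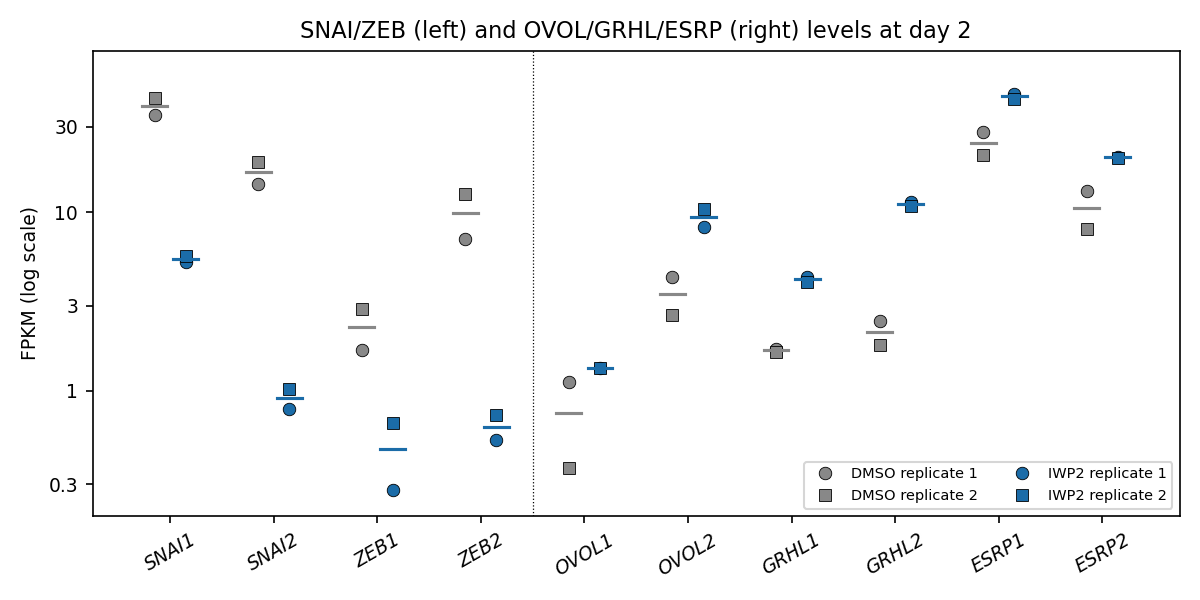
FPKM on a log scale (y) of the 10 genes (x) in each sample, with DMSO in grey, IWP2 in blue, circles for replicate 1, squares for replicate 2 and a line at each group mean. The blue points of the 4 SNAI/ZEB genes lie below the grey ones and those of the 6 guardians above, with OVOL1 closest to overlap.

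SNAI1 (Snail), which mouse embryos need for EMT at gastrulation, is at chromosome 20, 49982999 to 49988886 on the plus strand (GRCh38, as for all coordinates here). It was measured at 34.8 and 43.5 FPKM with DMSO and at 5.27 and 5.71 FPKM with IWP2. The IWP2 level was thus 0.14 of the DMSO level as a ratio of means, a log2 change of -2.62 ± 0.14 (SE, n = 2 against 2, limma adjusted p = 0.00104). SNAI1 remained the highest of the 4 repressors in every sample.

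SNAI2 (Slug), known from migratory mesoderm and neural crest, is at chromosome 8, 48917768 to 48921740 on the minus strand. It went from 14.4 and 19.0 FPKM with DMSO to 0.792 and 1.02 FPKM with IWP2. The difference was 18.4-fold in the means of FPKM. On the log2(FPKM + 1) scale it was -3.20 ± 0.18 (SE, limma adjusted p = 0.00118), the largest drop of the 10 genes and the 71st largest fall of all genes tested. The 2 SNAI genes did not fall in proportion: SNAI1 over SNAI2 was 2.42 and 2.29 with DMSO and 6.65 and 5.58 with IWP2, as ratios of FPKM.

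ZEB2 (SIP1), a zinc finger homeobox repressor, is at chromosome 2, 144364364 to 144524583 on the minus strand. Its level was 7.07 and 12.7 FPKM with DMSO and 0.533 and 0.729 FPKM with IWP2, a log2 change of -2.69 ± 0.28 (SE, limma adjusted p = 0.00624). The 2 DMSO samples were well apart, yet both were far above the IWP2 samples. ZEB2-AS1, an antisense gene that shares 1299 exon bases with ZEB2, was at or below 0.233 FPKM in every sample.

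ZEB1, the paralog of ZEB2, is at chromosome 10, 31318495 to 31529814 on the plus strand, and was the lowest of the 4 repressors in each sample. It was at 1.70 and 2.88 FPKM with DMSO and at 0.28 and 0.664 FPKM with IWP2. Its log2 change of -1.15 ± 0.26 (SE) only just passed (limma adjusted p = 0.0496), and with a pseudocount of 0.1 in place of 1 it was -2.10 with an adjusted p of 0.0533. The IWP2 values rest on few fragments, about 38.9 and 79.8 if the longest annotated transcript is assumed. ZEB1-AS1, which lies on the opposite strand and shares 366 exon bases, was at 2.47 and 3.29 FPKM with DMSO and at 1.75 and 2.53 FPKM with IWP2, and no source used here says that fragments were counted by strand. ZEB2 exceeded ZEB1 4.17- and 4.39-fold with DMSO but 1.90- and 1.10-fold with IWP2.

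A promoter window here runs from 250 bases before to 50 bases after a transcript start (GRCh38.p14). Windows of 3 of the 10 genes were taken from the RefSeq-derived table used here: ZEB1 with 7, and ZEB2 and GRHL1 with 1 each. They were searched on both strands for CAGGTG (the E-box form bound by SNAI and ZEB proteins), AACCGGTT (GRHL), CCGTTA (OVOL) and CTTTGA (TCF/LEF core), none of which overlap each other in these windows. The pair below is shown because ZEB1 and ZEB2 fell together and because repression of ZEB genes by OVOL proteins and mutual regulation among the repressors are known. Capitals mark the matches, and each line runs 5′ to 3′ on the gene's strand.
ZEB1, chr10:31318966-31319265, plus strand: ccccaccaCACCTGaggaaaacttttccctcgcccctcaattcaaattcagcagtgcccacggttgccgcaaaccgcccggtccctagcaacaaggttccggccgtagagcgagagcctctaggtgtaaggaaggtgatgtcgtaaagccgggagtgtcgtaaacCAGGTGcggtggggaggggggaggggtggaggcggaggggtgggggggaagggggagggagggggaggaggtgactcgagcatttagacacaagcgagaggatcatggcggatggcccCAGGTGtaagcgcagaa
ZEB2, chr2:144520070-144520369, minus strand: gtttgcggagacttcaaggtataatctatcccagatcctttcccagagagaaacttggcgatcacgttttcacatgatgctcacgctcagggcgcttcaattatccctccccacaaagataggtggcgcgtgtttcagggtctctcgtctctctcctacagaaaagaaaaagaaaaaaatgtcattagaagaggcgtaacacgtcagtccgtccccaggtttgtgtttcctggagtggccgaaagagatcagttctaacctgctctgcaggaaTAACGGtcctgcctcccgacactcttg
The ZEB1 window, which lies within the span of the gene in the table, holds 3 E-box matches, at -242, -85 and 33 bases from the start site counted as 0. Another ZEB1 window holds 1 E-box match and a separate one holds 1 OVOL match, while the remaining ZEB1 windows hold none of the 4 motifs. The ZEB1 window shown is thus the one of the 7 with the most matches. The ZEB2 window also lies within the span of its gene in the table. It holds 1 OVOL match, on the opposite strand, 23 bases after the start site of that window. An E-box match was present in 20.6% of all 35116 windows of this length, an OVOL match in 3.07%, a TCF/LEF match in 12.9% and a GRHL match in 0.134%. None of the 9 windows searched held a TCF/LEF or GRHL match. The GRHL1 window, with 79.7% G and C, held none of the 4 motifs. Promoters of the other genes among the 10 were not searched. A match is a run of letters and no measured binding.

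On the guardian side, GRHL2 is at chromosome 8, 101492432 to 101669726 on the plus strand, and activates epithelial junction genes such as CDH1 and CLDN4. It was at 2.45 and 1.80 FPKM with DMSO and at 11.4 and 10.8 FPKM with IWP2. It had the largest gain of the 6 guardians, 5.23-fold in the means and 1.96 ± 0.15 on the log2 scale (SE, limma adjusted p = 0.00327), 77th among all rises.

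GRHL1, its paralog, at chromosome 2, 9951693 to 10002277 on the plus strand, was at 1.72 and 1.65 FPKM with DMSO and at 4.35 and 4.06 FPKM with IWP2. The log2 change was 0.95 ± 0.14 (SE, limma adjusted p = 0.0158), and the replicates were close in both groups. GRHL2 over GRHL1 was 1.43 and 1.09 with DMSO and 2.63 and 2.65 with IWP2. Of 5 other members of these families tested, 1 was called. This was GRHL3, the remaining grainyhead-like gene and a regulator of surface ectoderm, which was higher, from 4.93 and 2.38 to 10.7 and 10.2 FPKM (log2 change 1.36, limma adjusted p = 0.0389). SNAI3, the remaining SNAI gene, was at 0.443 and 0.568 FPKM with DMSO and at 1.69 and 1.31 FPKM with IWP2, a direction opposite to that of SNAI1 and SNAI2, and did not pass (log2 difference 0.73, limma adjusted p = 0.0652).

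OVOL2, at chromosome 20, 17956979 to 18059188 on the minus strand, was at 4.33 and 2.66 FPKM with DMSO and at 8.27 and 10.5 FPKM with IWP2. The change was 1.22 ± 0.23 on the log2 scale (SE, limma adjusted p = 0.0297), with no overlap between the groups. OVOL2 shares 59 exon bases on its own strand with SNX5, which was at 82.1 to 112 FPKM. OVOL1, at chromosome 11, 65787022 to 65797219 on the plus strand, was at 1.13 and 0.37 FPKM with DMSO and at 1.34 in both IWP2 samples. Its log2 difference of 0.45 had a 95% interval of -0.21 to 1.12 (limma adjusted p = 0.322), and the lower DMSO value corresponds to about 20.2 fragments if the longest transcript is assumed. The 2 DMSO samples of OVOL1 were well apart, and leaving out each sample in turn gave log2 differences of 0.14 to 0.77.

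ESRP1, at chromosome 8, 94641074 to 94707466 on the plus strand, was the highest guardian in every sample. It was at 27.9 and 21.0 FPKM with DMSO and at 46.0 and 43.1 FPKM with IWP2, a log2 change of 0.85 ± 0.15 (SE, limma adjusted p = 0.0261). ESRP2, at chromosome 16, 68229111 to 68238102 on the minus strand, was at 13.2 and 8.05 FPKM with DMSO and at 20.4 and 20.0 FPKM with IWP2. Its log2 difference of 0.91 ± 0.22 (SE, 95% interval 0.33 to 1.48) was as large as that of ESRP1, but the DMSO samples were further apart and it missed the threshold (limma adjusted p = 0.0627). After rescaling each sample to the same summed FPKM, its adjusted p was 0.0446. ESRP1 over ESRP2 stayed between 2.12 and 2.60 in all 4 samples. ESRP2 shares 149 exon bases with NFATC3 on the opposite strand, which was at 13.3 and 11.8 FPKM with DMSO and at 11.2 and 8.06 FPKM with IWP2.

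**Figure D2:**
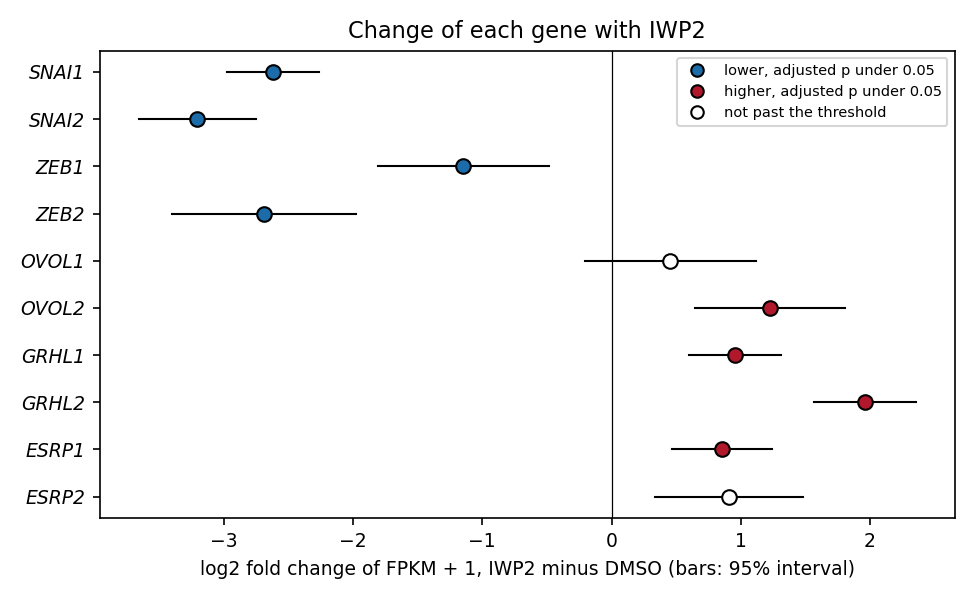
Log2 fold change of FPKM + 1, IWP2 minus DMSO (x), for each of the 10 genes (y), with bars for the 95% interval of the limma fit and filled points for adjusted p under 0.05. The SNAI/ZEB genes lie between -3.20 and -1.15, the guardians lie between 0.45 and 1.96, and the interval of OVOL1 is the one that crosses 0.

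Each of these calls rests on 2 samples a group. When either IWP2 sample was left out, so that the lone sample was assumed to vary like the DMSO pair, none of the 10 genes was called by limma (without replicate 1 the lowest adjusted p was 0.0503, SNAI1, and 128 of all genes were called, and without replicate 2 it was 0.0504 and 107 genes), although every log2 change kept its sign and 8 of the 10 had an unadjusted p under 0.05 in each of these 2 fits. Without DMSO replicate 1, SNAI1, SNAI2, ZEB2, GRHL2, ESRP1 and ESRP2 were called, and without DMSO replicate 2, SNAI1, SNAI2, ZEB2 and GRHL2. An exact permutation test of 2 against 2 samples cannot go below p = 0.33.

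The order of levels changed between the groups, though not for every pair of genes. With DMSO, the means ran from SNAI1 (39.1 FPKM) through ESRP1 (24.5), SNAI2 (16.7), ESRP2 (10.6), ZEB2 (9.86), OVOL2 (3.50), ZEB1 (2.29), GRHL2 (2.12) and GRHL1 (1.68) to OVOL1 (0.749). The replicate values of ESRP2 and ZEB2 overlapped, as did those of OVOL2 and ZEB1 and of ZEB1 and GRHL2, so that those neighbours did not differ beyond their spread. With IWP2, ESRP1 (44.5 FPKM), ESRP2 (20.2), GRHL2 (11.1) and OVOL2 (9.38) came first, then SNAI1 (5.49), GRHL1 (4.20), OVOL1 (1.34) and SNAI2 (0.908). ZEB2 (0.631) and ZEB1 (0.472) came last, and their replicate values overlapped.

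Summed over the 4 repressors, the level was 57.9 and 78.0 FPKM with DMSO and 6.87 and 8.12 FPKM with IWP2. Summed over the 6 guardians, it was 50.8 and 35.5 FPKM with DMSO and 91.8 and 89.8 FPKM with IWP2. The repressor sum over the guardian sum was 1.14 and 2.20 with DMSO and 0.0748 and 0.0905 with IWP2. The mean log2 ratio was 0.66 with DMSO and -3.60 with IWP2, a difference of -4.27 against a pooled SD of 0.49, given without a test because the genes were a chosen set. SNAI1 made up 55.7% to 60.0% of the repressor sum with DMSO and 70.3% to 76.6% with IWP2, and ESRP1 made up 48.0% to 59.1% of the guardian sum over all samples. These 2 genes therefore weigh most in the sums.

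**Figure D3:**
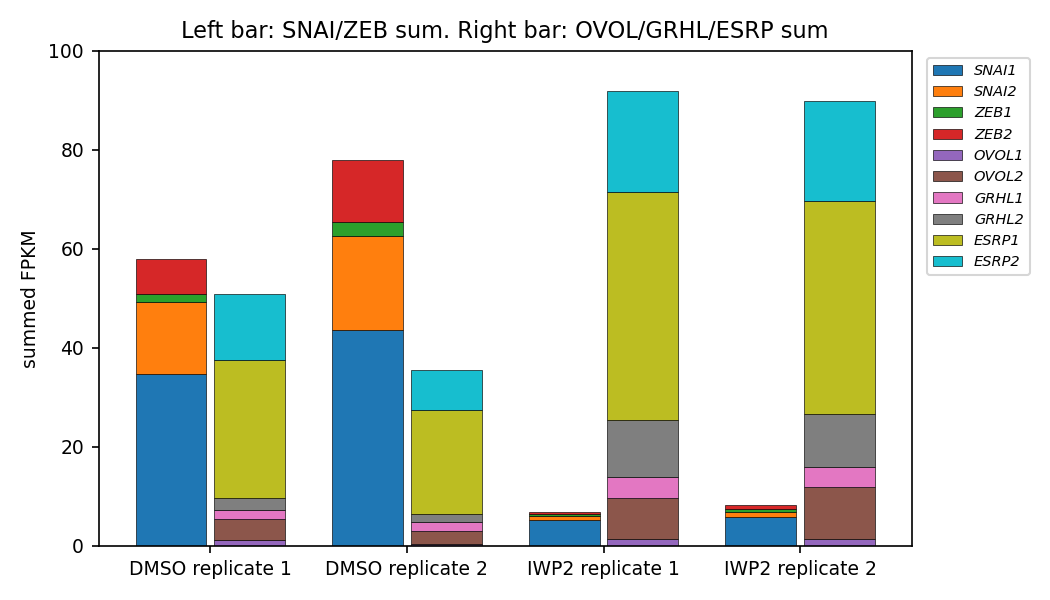
Summed FPKM (y) in each of the 4 samples (x), with the SNAI/ZEB genes stacked in the left bar and the OVOL/GRHL/ESRP genes in the right bar. In both DMSO samples the left bar is the taller (57.9 against 50.8 and 78.0 against 35.5), and in the IWP2 samples the heights are 6.87 and 8.12 against 91.8 and 89.8.

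The 24 pairs of 1 repressor and 1 guardian give the same comparison without sums. They reuse the same genes and samples, so they are not separate observations. The repressor was the higher of the pair in 16 and 20 of the 24 pairs with DMSO and in 2 of 24 in each IWP2 sample. In 14 pairs the repressor was higher in both DMSO samples and the guardian in both IWP2 samples. The 2 pairs in which the repressor stayed higher were SNAI1 with OVOL1 and SNAI1 with GRHL1. ESRP1 exceeded SNAI2, ZEB1 and ZEB2 in all 4 samples, as ESRP2 did ZEB1. ZEB1 and GRHL2, known to repress each other, were near parity with DMSO, where GRHL2 over ZEB1 was 1.44 and 0.624, and stood at 40.8 and 16.2 with IWP2. The IWP2 ratios divide by ZEB1 levels of 0.28 and 0.664 FPKM, which rest on few fragments, so their size is uncertain.

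**Figure D4:**
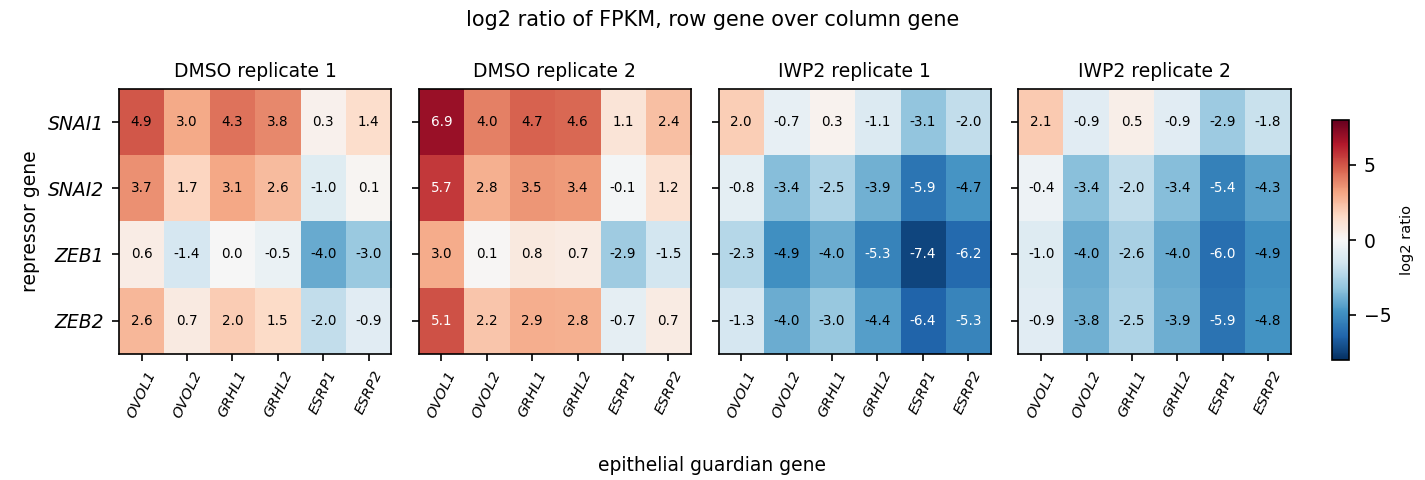
Log2 ratio of FPKM of each repressor (rows) over each guardian (columns) in the 4 samples (panels), with red for a higher repressor and blue for a higher guardian. The panels of DMSO hold 16 and 20 pairs with a higher repressor, and those of IWP2 hold 2 each.

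By distance over the 4 samples in log2(FPKM + 1), the genes most like each of the 10 were also found. SNAI1 was nearest to GYPC (distance 0.33) and LINC00458 (0.35), SNAI2 to FGF8 (0.35), a growth factor of the primitive streak, and ZAP70 (0.36), and ZEB2 to HOXB9 (0.40) and HLX (0.44), both homeobox genes. ZEB1 was nearest to AC226119.2 (0.16) and KLF1 (0.35). Among guardians, GRHL2 was nearest to VAT1L (0.0820) and DCLK1 (0.28), ESRP1 to LLGL2 (0.17), a basolateral polarity gene, and OLFM2 (0.22), and OVOL2 to RELL2 (0.25) and IGFBP7 (0.27). GRHL1 was nearest to PHC1P1 (0.11) and WHRN (0.14), ESRP2 to TSPAN18 (0.20) and PLPP2 (0.22), and OVOL1 to DNAJC12 (0.16) and P2RX2 (0.18). This distance weighs a difference in mean level more than an equal difference in log2 change. It says only that the values were alike.

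Genes that work with or under the 10 were read from lists set by gene function. Of 15 other EMT-inducing transcription factors tested, 8 fell with IWP2 and 0 rose (limma, also 0 at an unadjusted p under 0.05), with a median log2 change of -0.98 against -0.0145 over all genes tested. GSC, EOMES, MSX1 and LEF1, themselves streak or Wnt-pathway genes, fell most, between -4.36 and -3.14. TWIST1, a basic helix-loop-helix EMT factor, was at 2.94 and 4.83 FPKM with DMSO and at 2.55 and 2.30 FPKM with IWP2 and did not pass (limma adjusted p = 0.236). Of 17 corepressor partners of SNAI and ZEB proteins, 15 did not pass the test, while CTBP2 rose (log2 change 0.49) and RCOR3 fell (-0.55). The share called on this list was near the 13.3% called over all genes tested. Of 16 genes known to set SNAI1 protein stability, 3 rose (PRKD1, FBXW7 and PAK1, 0.43 to 0.81), LOXL2 fell (-0.58) and 12 did not pass. Protein was not measured, so that these data give the transcripts of the repressors and not their amounts or activity.

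Among epithelial genes, 13 of the 41 tested rose, 2 fell (DSP and MYO5B) and 26 did not pass, with a median log2 change of 0.64. CDH1, the best known target of SNAI and ZEB repression, was at 32.6 and 29.7 FPKM with DMSO and at 120 and 124 FPKM with IWP2 (log2 change 1.94, limma adjusted p = 0.000696). CLDN4 and CLDN10, which encode tight junction claudins, and RAB25, an epithelial trafficking GTPase, rose by 1.57 to 2.74 on the log2 scale. EPCAM was at 88.3 and 53.0 FPKM with DMSO and at 133 and 138 FPKM with IWP2 (limma adjusted p = 0.0618).

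Among 30 mesenchymal genes tested, 16 fell and 5 rose, with a median log2 change of -0.75. CDH2, the N-cadherin gene, went from 73.8 and 67.1 to 14.4 and 15.4 FPKM. BMP2, GATA4, CDH11 and TNC fell most, between -4.34 and -3.42 on the log2 scale. Those that rose included FN1, AXL, TAGLN and ITGB1, and FN1, which encodes fibronectin, rose from 235 and 153 to 794 and 769 FPKM. BMP2, GATA4, FN1, NRP1, TBX20 and FOXD1 on this list are genes the study itself picked as mesenchymal, so that the list is not independent evidence of its direction.

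For the splicing arm, 16 of 19 other splicing regulators did not pass, and the share called was near the 13.3% over all genes tested. RBM47, an RNA-binding protein known to act beside ESRP2 in epithelial splicing, rose from 4.42 and 3.26 to 17.5 and 14.7 FPKM (log2 change 1.83, limma adjusted p = 0.00469), while RBFOX1 (-1.44) and MBNL3 (-1.07) fell. RBFOX2, which favours mesenchymal splice forms, was at 50.4 and 48.6 FPKM with DMSO and at 45.3 and 38.7 FPKM with IWP2 and did not pass (limma adjusted p = 0.217). Of 18 genes whose splicing ESRP proteins set, 4 rose (TCF7L2, FGFR3, MAGI1 and GRHL1, the last being one of the 10), CD44 fell and 13 did not pass. Gene-level FPKM do not separate isoforms, so splicing itself was not tested here.

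**Figure D5:**
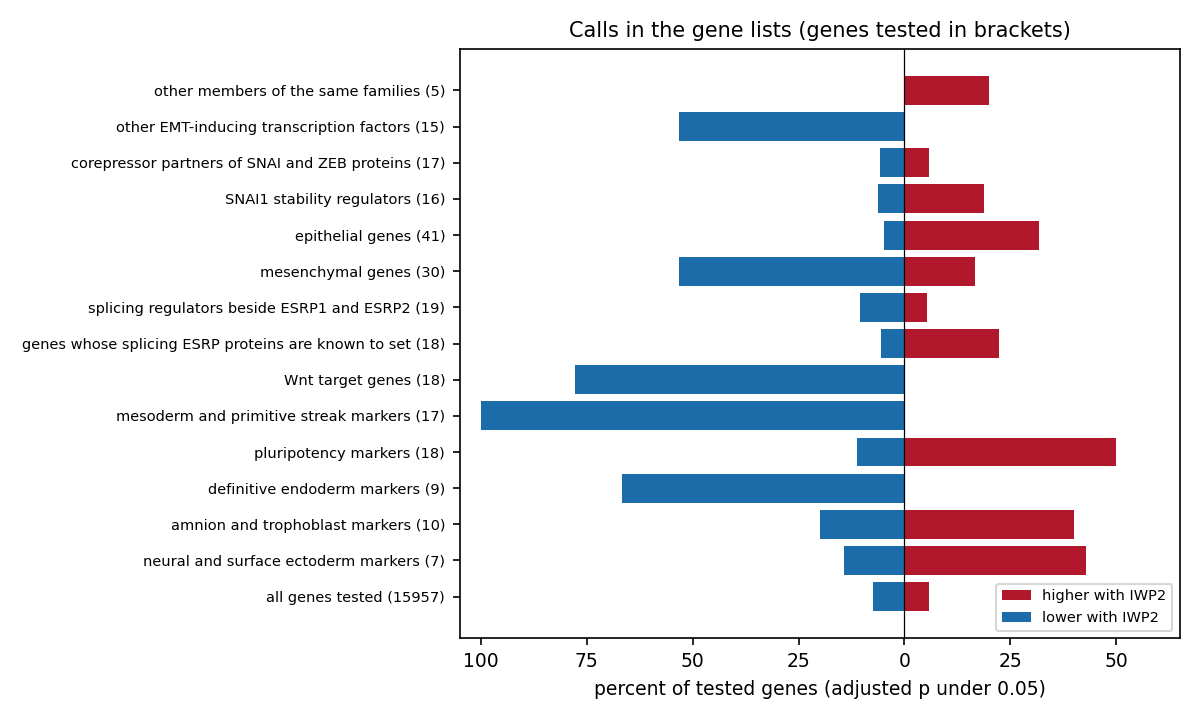
Percent of the tested genes in each list (rows, number tested in brackets) that were called higher (red, right) or lower (blue, left) with IWP2, with all 15957 genes tested in the bottom row. The mesoderm, Wnt target and endoderm lists have the longest bars on the left. On the right, the pluripotency list has the longest bar (9 of 18 genes). The ectoderm and the amnion and trophoblast lists come next, ahead of the epithelial list with 13 of 41 genes.

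Markers of other cell types moved with the 10 genes, and their part in these results was not tested. Of 18 pluripotency genes, 9 rose, 2 fell (TDGF1 and DPPA2) and 7 did not pass, NANOG among them. The summed level of the 18 was 1598 to 1850 FPKM with DMSO and 3304 to 3369 FPKM with IWP2. Without POU5F1, the other 17 summed to 1026 to 1099 FPKM with DMSO and 1460 to 1514 FPKM with IWP2. SOX2 was at 0.193 and 0.174 FPKM with DMSO and at 35.6 and 36.1 FPKM with IWP2. The 18 mesoderm and primitive streak genes summed to 1531 to 1914 FPKM with DMSO and 207 to 227 FPKM with IWP2, and the 12 endoderm genes to 1939 to 2319 and 140 to 151 FPKM, with 6 of 9 tested lower and CER1 taking 83.1% to 88.3% of the sum with DMSO and 22.6% to 27.6% with IWP2. Of 10 amnion and trophoblast markers tested, 4 rose (IGFBP3, KRT7, TFAP2A and GABRP) and 2 fell (CDX2 and HAND1). That list of 19 summed to 355 to 433 FPKM with DMSO and 266 to 291 FPKM with IWP2, but without HAND1, which is also on the mesoderm list, the other 18 summed to 110 to 121 and 165 to 172 FPKM, the opposite direction. On this list, 9 genes were under 1 FPKM in every sample, and ELF5 and XAGE2 were listed at 0 throughout. Of 7 neural and surface ectoderm markers tested, 3 rose (FOXD3, SOX3 and DLX6) and OTX2 fell, and the 16 on the list summed to 64.0 to 67.3 FPKM with DMSO and 17.8 to 18.0 FPKM with IWP2. OTX2 carried that difference, since the other 15 summed to 6.06 to 8.18 FPKM with DMSO and 14.9 to 15.8 FPKM with IWP2.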

How the data were processed

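RNA-seq libraries (Illumina TruSeq RNA kit, total RNA) were made from 2 DMSO and 2 IWP2 samples of H1-derived cells at day 2. The authors deposited 1 table of FPKM per gene, not pooled over replicates, with columns marked as without or with IWP2. Per the labels, the submitters' processing notes name BWA, Bowtie and RSEM and the build hg19, with no versions, but 97.4% of the 58099 gene IDs also found in GENCODE v29 had its GRCh38 coordinates, which are given here. The table does not name its unit, which was taken as FPKM. The values summed to 616418 to 653850 in a sample, so they were not scaled to one sum. Times transcript length, they fell on steps (88.6% to 90.6% of low values within 0.15 of a step). Any measure per length would give steps, so these do not identify the unit. The depth estimate reads 1 step as 1 fragment and rests on that unit. FPKM values are estimates, and reads shared by paralogs or overlapping genes can be split between them. Fragment counts themselves were not used, so no counting interval is given, and the number of samples limits precision. The paper and the labels differ in the doses of activin A and BMP4, and those of the labels are given. In the table, 12 rows carry a date in place of a symbol.

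Repeated symbols were reduced to the row of highest mean, leaving 56595. Rows with a mean under 0.5 FPKM were left out, log2(FPKM + 1) was fitted with limma 3.58.1 (R 4.3.3, trend on mean level, two-sided, no block), and p-values were adjusted by Benjamini-Hochberg over 15957 genes. Fold changes are on that scale, which understates changes of low genes. The fit was tested on simulated data. Alternatives were other pseudocounts (0.1, 0.5), filters, scalings, no trend, a replicate block and each sample left out. The genes named were the 10, fixed treatment and cell checks, up to 4 called genes of largest change per list and the 2 nearest profiles of each gene, and further genes were named after their values were seen where a short count asked for them. A gene of the mesenchymal list is counted but not reported here by name. The 10 genes and the lists were chosen with earlier results of these data known. p-values measure the spread between these samples, which may be technical.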

Additional observations from a re-analysis of the deposited data

How the results depend on the processing

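Every log2 change of the 10 genes kept its sign under each of the alternatives and with each sample left out. The number called among the 10 was 8 and fell to 3 (SNAI1, SNAI2 and GRHL2) with no filter on low values, where ZEB1 (-1.15), ZEB2 (-2.69), OVOL2 (1.22), GRHL1 (0.95) and ESRP1 (0.85) no longer passed and the genes called in all went from 2115 to 384 of 28846. With a fold threshold of 1 on the log2 scale added, 1049 genes and 6 of the 10 were called, without GRHL1 and ESRP1. By limma, ZEB1 lost its call with a pseudocount of 0.1 (-2.10) and with no trend (-1.15). ESRP2 gained one with each sample rescaled to one sum (0.90) and with the replicate block (0.91). The numbers in the labels were not taken to pair the samples, since same-numbered samples deviated together with a correlation of 0.138 over genes in only 2 pairs, and under the block 1922 genes and 9 of the 10 were called. Leaving out 1 sample gave 107 to 731 genes called in all and 0 to 6 of the 10. Over those fits the log2 change ranged from -2.78 to -2.46 for SNAI1, -3.39 to -3.01 for SNAI2, -1.41 to -0.89 for ZEB1, -3.07 to -2.31 for ZEB2, 0.14 to 0.77 for OVOL1 (0.45 with all samples, and 0.92 with a pseudocount of 0.1), 0.95 to 1.49 for OVOL2, 0.91 to 0.99 for GRHL1, 1.81 to 2.11 for GRHL2, 0.65 to 1.05 for ESRP1 and 0.58 to 1.23 for ESRP2, and the lone sample was assumed to vary like the other group. The cause of these lost calls was not tested. The scalings moved the median of all genes from -0.0145 to between -0.04 and 0.00384.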
